A study of Mus musculus with 34 samples.

Results

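The comparison described here sets lungs that received 54 µg of a carbon nanotube material against lungs that received 18 µg of the same material. It uses the exposed animals only, 29 of the 34 arrays in the series: 15 arrays at 54 µg and 14 at 18 µg, with the other 5 being controls. The arrays were chosen by the dose and material in their labels. Material NRCWE-043 had 5 arrays at 54 µg and 5 at 18 µg. Material NRCWE-044 had 5 at the higher dose against 6, and NRCWE-045 had 5 against 3. Values listed by material below keep this order. All animals were female C57BL/6 mice of 5 to 7 weeks given 1 intratracheal instillation in 40 µl, and lungs were taken at day 28. The labels call 18 µg the medium and 54 µg the high dose, and do not say what the controls received. All 5 controls are labelled as controls at 0 µg, although the title of 1 (replicate 3) carries the name NRCWE-043. Each array held labelled RNA from random sections of 1 frozen lung in the red (Cy5) channel. A universal reference RNA from 11 mouse cell lines was in the green (Cy3) channel of every array, with no dye swap. Values are log2 ratios of lung to reference RNA. A difference is the mean log2 ratio at 54 µg minus that at 18 µg with material as a block, printed with its standard error (SE), so that a difference of 1 is a doubling.

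Carbon nanotubes that reach the alveoli are taken up by macrophages, which degrade them slowly or not at all, so that particle-laden cells can persist in the lung for weeks. Such macrophages are known for a lysosomal and lipid-handling program and for release of CC chemokines, which recruit monocytes. Instilled nanotubes are also known in mouse lung for acute phase genes of the serum amyloid A family, for interferon-responsive and type 2 immune genes, and for fibrosis. The comparison between doses asks which of these responses grew with dose whatever the material.

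Lung identity was borne out by Sftpc, the surfactant protein C gene of alveolar type 2 cells, which was well above background on all 15 and 14 arrays, with log2 ratios from 7.09 to 8.93. Each of the 6 slides held both doses. The leading axis of variation held 19.2% of the variance over the exposed arrays, and slide explained more of it (R² 0.593) than dose did (R² 0.0693). The 4 array columns of a slide were not balanced: of the 8 exposed arrays in the fourth column, 7 were at 54 µg and 1 at 18 µg. The 4 arrays that stood apart had median correlations to the other exposed arrays of 0.926, 0.926, 0.93 and 0.934. They were NRCWE-045 18 µg replicate 2, NRCWE-045 54 µg replicate 4, NRCWE-043 18 µg replicate 3 and NRCWE-044 54 µg replicate 1. The replicates are separate samples in the labels, which do not name the animals, so p-values measure the spread between these samples.

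No unit passed the test of the dose difference. Of 29115 units (17067 named genes and otherwise unnamed accessions), 0 had a Benjamini-Hochberg adjusted p under 0.05 in limma, which is 0% of those tested, and the smallest adjusted p was 1 after rounding. Without adjustment, 683 units were higher and 555 lower at 54 µg at p under 0.05, or 2.35% and 1.91% of the units. An even spread of p would put 1455.8 units in each bin of 0.05, and the lowest bin held 1238. With slide as a further block 0 units passed again, with a smallest adjusted p of 0.656. The unadjusted counts were then 1030 higher (3.54%) and 771 lower (2.65%), 1801 in all. With the slide column as a block they were 449 and 369. With list scores of red cells, heart, fat and liver as covariates they were 779 and 529. Without the 4 arrays that stood apart they were 589 and 657, and without these and NRCWE-043 54 µg replicate 1 they were 533 and 690. Counts of list members under these fits, given below, are to be read beside these totals, since 2.35% is the share in the main fit. The differences themselves were small: the median size was 0.045 in log2, the 95th percentile 0.182, and the median SE 0.067. Only 67 units differed by more than 1.5-fold in either direction.

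**Figure D1:**
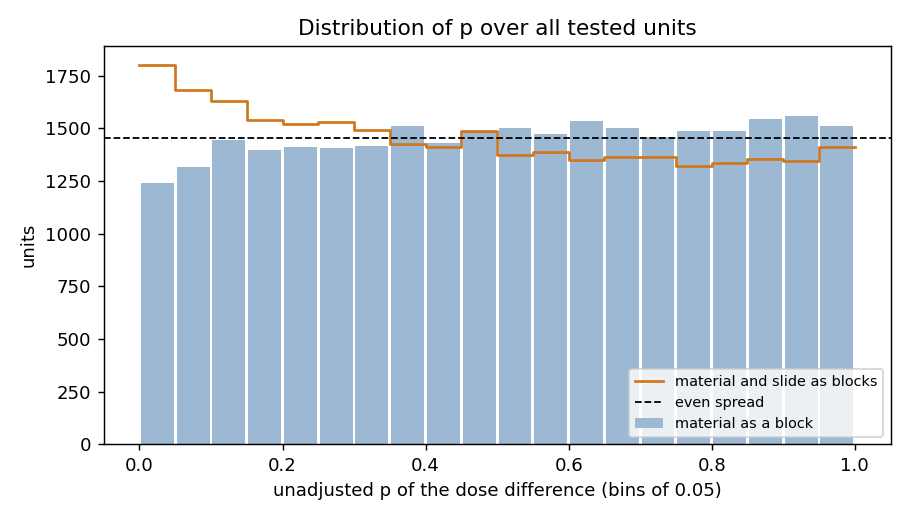
Number of tested units in each bin of 0.05 of the unadjusted p of the dose difference. Bars are the fit with material as a block, the line the fit with slide added, and the dashed line an even spread of 1455.8 units a bin. The lowest bin held 1238 units without slide and 1801 with it.

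Dose differences correlated weakly between the materials. Across the 29115 units, which are not independent replicates, the dose difference of NRCWE-043 correlated with that of NRCWE-044 at r = 0.365 (Spearman 0.152). NRCWE-045 correlated with NRCWE-043 at -0.163 (Spearman -0.128). With NRCWE-044 it was at -0.153, but Spearman's value was 0.0379 and Pearson's with slide as a block -0.0296, so no direction can be given for that pair. No array is shared between these differences, although slides are. Without the 4 arrays that stood apart the Pearson values of the 3 pairs were 0.373, -0.364 and -0.095. The sign was the same in all 3 materials for 7261 units, or 24.9%, of which 3752 were higher and 3509 lower. This share is about what signs unrelated between the materials would give, so it is not read as a common response. The limma test of whether the dose difference depended on material passed 0 units (0%) and gave 657 at unadjusted p under 0.05 (2.26%). The 5 named genes with the lowest p in that test were Mei4, Dnase1l3, Acot2, Xlr3b and Tuba8, all with an adjusted p of 1.00. Dnase1l3, a secreted DNase of macrophages and dendritic cells, differed by 0.22, 0.21 and -0.35 by material. Acot2, a mitochondrial acyl-CoA thioesterase, differed by -0.35, -0.01 and 0.22. Taken alone, each material also had 0 units past the test. Its unadjusted counts were 459 higher and 425 lower for NRCWE-043, 770 and 642 for NRCWE-044, and 217 and 441 for NRCWE-045.

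Because 0 units passed, the genes named below are described by their values. The 15 named genes with the lowest unadjusted p above 0 and the 15 below 0 were taken, among genes whose difference had 1 sign in all 3 materials. The choice of 1 sign fixes the agreement between materials, so that agreement is no result. The 15 higher genes differed by 0.18 to 1.17 and the 15 lower ones by 0.14 to 0.36 in size. In none of the 30 (0 and 0) were the doses separate without overlap.

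Among the higher genes, those known from immune cells are described first, a grouping made after their values were seen. Ctsk, the lysosomal cysteine protease cathepsin K, ran from 2.53 to 3.62 at 54 µg (median 2.89) and from 2.02 to 3.44 at 18 µg (median 2.35). All 15 arrays at 54 µg lay above the 18 µg median, and 4 lay above the highest array at 18 µg, which was NRCWE-043 replicate 3. The controls had a median of 2.43, near the 18 µg arrays. The difference was 0.57 ± 0.14 (SE; 95% interval 0.29 to 0.86), with an unadjusted limma p of 0.000296 and adjusted p of 1.00, and it was above 0 within all 6 slides. Ms4a7, a membrane protein of monocyte-derived macrophages, ran from -0.20 to 1.26 at 54 µg (median 0.21) and from -0.78 to 0.43 at 18 µg (median -0.27, as in the controls). Its difference was 0.54 ± 0.15, and again all 15 arrays at 54 µg were above the 18 µg median. Clec4n, the phagocyte receptor Dectin-2, had medians of 3.41 and 3.14 (difference 0.25 ± 0.07). Lair1, an inhibitory collagen receptor of leukocytes, had medians of 1.06 and 0.81 (difference 0.21 ± 0.06). Adora3, an adenosine receptor, had medians of 1.45 and 1.14, with the controls at 1.43, so here the 18 µg arrays were the low ones. Cd207, the C-type lectin langerin of some dendritic cells, had medians of 1.30 and 0.89 (difference 0.35 ± 0.09), with the controls at 1.32, likewise nearer to 54 µg.

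Among these 15 higher genes, the differences of a pair of neighbouring Ly6 genes were the widest. Ly6i ran from 0.33 to 4.66 at 54 µg (median 1.29) and from 0.18 to 1.42 at 18 µg (median 0.41), with the controls at a median of 0.44. Its difference was 1.17 ± 0.31, and 7 of the 15 arrays at 54 µg exceeded every array at 18 µg. By material the difference was 1.42, 1.27 and 0.71. The highest array was NRCWE-043 54 µg replicate 1, and without any 1 array the difference stayed between 0.95 and 1.30. Ly6f had medians of 1.25 and 0.54 (difference 0.96 ± 0.27). Ly6 genes are close in sequence, so their probes may detect each other's transcripts, and the pair may not be 2 independent measurements. Klrg1, a receptor of effector NK and T cells, ran from 1.08 to 2.35 at 54 µg and from 0.53 to 1.77 at 18 µg, with medians of 1.44 and 1.02. All 15 arrays at 54 µg were above the 18 µg median, and the difference was 0.48 ± 0.12. The control arrays spanned 0.99 to 2.16 (median 1.13), so the doses lay on both sides of them.

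**Figure D2:**
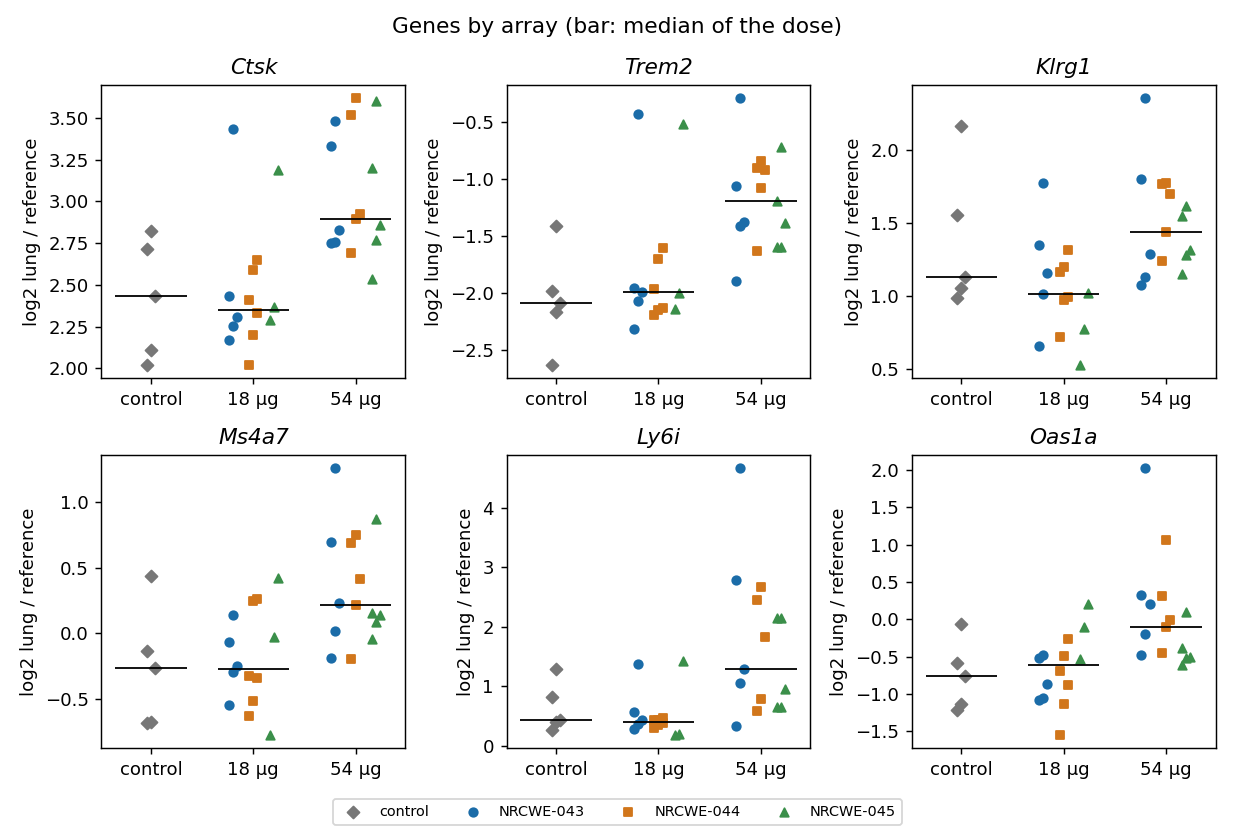
Log2 ratio of lung to reference RNA on each array for Ctsk, Trem2, Klrg1, Ms4a7, Ly6i and Oas1a, by control, 18 µg and 54 µg. Colours and symbols are the materials, and bars the median of each dose. The medians for Ctsk were 2.89 at 54 µg and 2.35 at 18 µg, with overlap between the doses in every panel.

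The other higher genes were E230025N22Rik (0.50 ± 0.12), Fndc7 (0.31 ± 0.07), Gapdhs (0.21 ± 0.05), Zfp280b (0.18 ± 0.05), Itga7 (0.36 ± 0.10) and Plekhg1 (0.18 ± 0.05). Itga7 encodes an integrin that binds laminin and is typical of muscle. Another probe of E230025N22Rik gave 0.06, and Plekhg1 was well above background on 1 array at 54 µg and 3 at 18 µg, so both rest on little. Over the 15 higher genes the median distance from the control mean was 0.28 at 54 µg and -0.05 at 18 µg. In 10 of them the 18 µg mean was nearer to the controls and in 5 the 54 µg mean.

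Among the lower genes Txnip, an inhibitor of thioredoxin that responds to glucose, differed most by the probe used. It ran from 0.89 to 1.47 at 54 µg (median 1.08) and from 0.71 to 2.12 at 18 µg (median 1.57). The difference was -0.36 ± 0.10, with -0.22 for another probe. All 15 arrays at 54 µg lay at or below the 18 µg median, and the controls had a median of 1.15. The 18 µg arrays were thus the high ones against the controls. Actg1, cytoplasmic gamma actin, had medians of 0.90 and 1.05 (difference -0.19 ± 0.05), and its 4 other probes gave -0.15 to -0.26. Myl12a, a myosin regulatory light chain, had medians of 0.71 and 0.84 (difference -0.19 ± 0.06). Pdia5, a protein disulfide isomerase of the endoplasmic reticulum, had medians of -0.77 and -0.48 (difference -0.25 ± 0.07). Klf11, a Krüppel-like transcription factor, had medians of 0.04 and 0.21 (difference -0.19 ± 0.06). The rest were Zfp365, Gm10745, Olfr1364, BC018473, Vmn2r13, 1700042G15Rik, Frrs1l, Olfr850, Exosc1 and Gm7854. Of the 15 lower genes 7 were well above background on fewer than 15 of the exposed arrays, against 1 of the 15 higher genes. For Frrs1l and Exosc1 another probe gave the opposite sign, 0.13 and 0.06. Over the 15 lower genes the median distance from the control mean was -0.09 at 54 µg and 0.10 at 18 µg, and the 54 µg mean was the nearer to the controls in 9 and the 18 µg mean in 6.

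**Figure D3:**
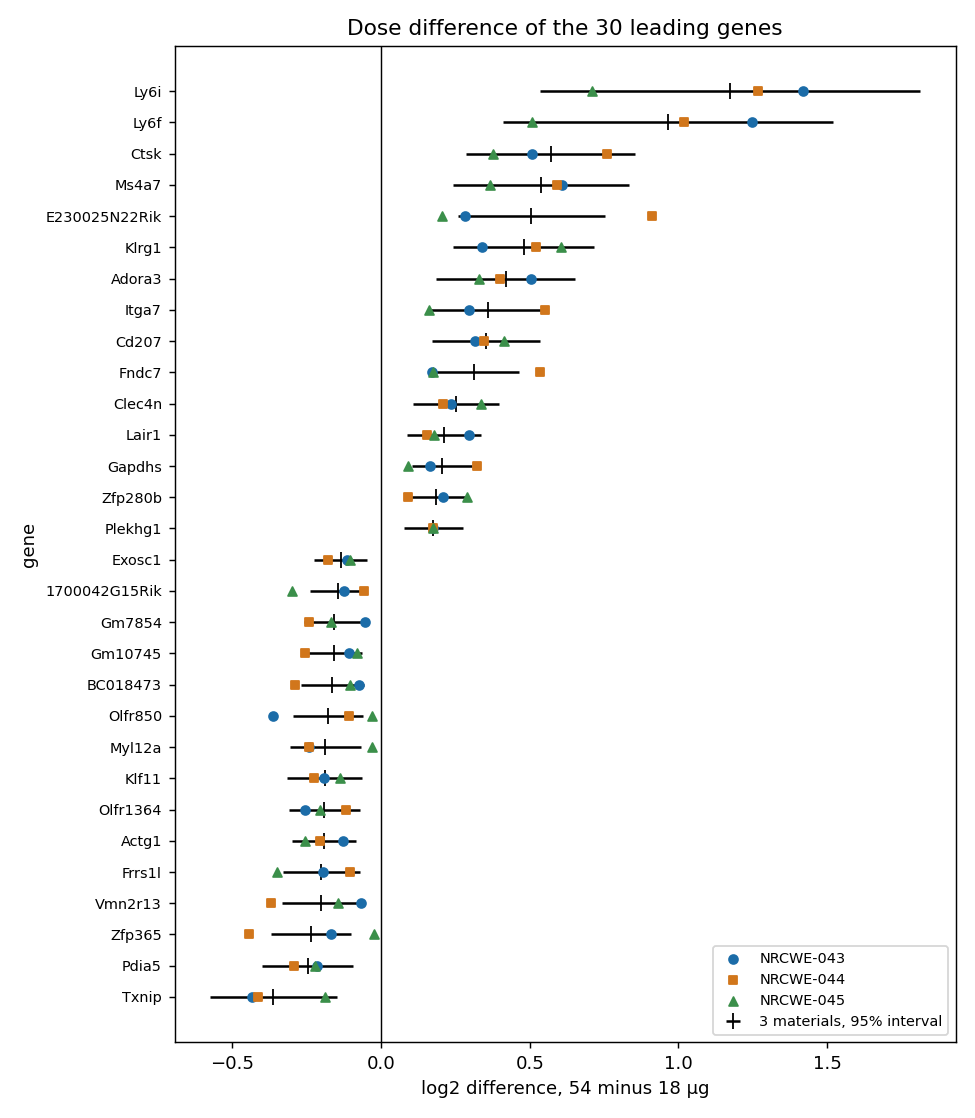
Log2 difference, 54 minus 18 µg, of the 30 leading genes. Ticks with lines are the difference over the 3 materials with its 95% interval, and symbols are the difference within each material. Ly6i stands farthest right at 1.17 and Txnip farthest left at -0.36.

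Genes of macrophage lysosomes and lipid handling were examined as a list of 29 tested genes, of which 20 were above 0, with a median difference of 0.08, beside a median of 0.00 over all units. None passed the adjusted test (0 of 29), and 5 were higher at unadjusted p under 0.05, against 2.35% of all units. They were Ctsk, Trem2, Ctsd, Gpnmb and Atp6v0d2. Trem2, a macrophage receptor for lipids, ran from -1.89 to -0.29 at 54 µg (median -1.18) and from -2.32 to -0.43 at 18 µg (median -1.99). All 15 arrays at 54 µg were above the 18 µg median, and the controls had a median of -2.08. At 18 µg, 2 arrays stood high, NRCWE-043 replicate 3 at -0.43 and NRCWE-045 replicate 3 at -0.51, and the others were at or below -1.60. The difference was 0.60 ± 0.19, and within materials it was 0.55, 0.88 and 0.25. Gpnmb, a transmembrane glycoprotein of phagocytes, had medians of -3.27 and -3.79 (difference 0.45 ± 0.18). Ctsd, the lysosomal protease cathepsin D, had medians of 1.09 and 0.89 (difference 0.25 ± 0.10), and another probe gave 0.08. Without the 4 arrays that stood apart, 9 of the 29 were higher at that threshold, as they were without NRCWE-043 18 µg replicate 3 alone. With the slide column as a block 3 were, and with list scores of red cells, heart, fat and liver as covariates 2 were. The median was similar in the materials, at 0.07, 0.10 and 0.12. Other genes of the list did not share this direction, among them Gla (-0.13), the cathepsin Ctsl (-0.12), Apoe (-0.02) and Cd36 (-0.03).

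Marker lists of the phagocytes themselves had medians of like size. Of 16 alveolar macrophage markers 12 were above 0 (median 0.10; -0.07, 0.21 and 0.15 by material), with Itgax, the integrin CD11c, at 0.23 ± 0.09 and Fabp1, a fatty acid binding protein, at -0.52 ± 0.21. Of 16 markers of monocytes and interstitial macrophages 14 were above 0 (median 0.15), with 3 higher at unadjusted p under 0.05, against 2.35% of all units. That count was 1 without the 4 arrays, 2 without NRCWE-043 54 µg replicate 1 and 6 without NRCWE-045 18 µg replicate 1. The 3 were Ms4a7, Cx3cr1, the fractalkine receptor (0.35 ± 0.14), and C1qa, a chain of complement C1q (0.27 ± 0.12). In bulk lung RNA more cells of a type and more RNA per cell cannot be told apart. Of 17 complement genes 13 were above 0 (median 0.13, or 0.04 with slide as a block) and 3 were higher at that threshold, against 2.35% of all units. That count was 1 without NRCWE-045 18 µg replicate 2, 6 without its replicate 1, and 1 without the 4 arrays.

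Nearly all CC chemokines and their receptors lay on the higher side at 54 µg. Of 18 tested 17 were above 0, with a median of 0.27, and 8 were higher at unadjusted p under 0.05, against 2.35% of all units; 0 of 18 passed the adjusted test. Ccl8, a monocyte chemoattractant, ran from 1.28 to 3.95 at 54 µg (median 1.97) and from 0.31 to 2.88 at 18 µg (median 1.42), with the controls at 1.65. Its difference was 0.73 ± 0.26, but within materials it was 0.75, 1.29 and -0.10. Ccl4, a chemoattractant of monocytes and T cells, had medians of -2.42 and -2.70 (difference 0.48 ± 0.16) and was above 0 within all 6 slides. Ccl2, the main ligand of the monocyte receptor Ccr2, ran from -4.70 to -2.13 at 54 µg (median -4.37) and from -5.04 to -3.73 at 18 µg (median -4.74), a difference of 0.44 ± 0.18. Ccl7, another Ccr2 ligand, had medians of -3.50 and -4.03 (difference 0.50 ± 0.24). Ccl6 (0.37), Ccl9 (0.45) and Ccl11 (0.27) were also higher at that threshold, and the 1 member below 0 was Ccl24 (-0.19). The median of the list by material was 0.31, 0.41 and 0.02. The count of 8 was also 8 without the 4 arrays that stood apart, and 5 without NRCWE-044 54 µg replicate 4. It was 3 with the slide column as a block and 3 with the tissue scores as covariates, and the part of column and tissue content in the result was not tested further.

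Of 15 CXC chemokines and receptors 12 were above 0 (median 0.07). Without the 4 arrays that stood apart 9 were (median 0.02), and without these and NRCWE-043 54 µg replicate 1 only 5 were (median -0.01), so the direction turned. Cxcr1, a neutrophil chemokine receptor, was the 1 member at unadjusted p under 0.05, against 2.35% of all units. Its medians were 0.99 and 0.49 (difference 0.64 ± 0.21). Cxcr2, also among the neutrophil markers, went the other way, at -0.17 ± 0.15. Cxcl12 (-0.006) and Cxcl14 (-0.002) were the other members below 0. Cxcl5, a neutrophil attractant of epithelial cells, differed by 0.85 ± 0.43, Cxcl1 by 0.32 ± 0.24 and the B cell attractant Cxcl13 by 0.05 ± 0.34. Cxcl1 was well above background on only 12 arrays at 54 µg and 8 at 18 µg. Cxcl2 was not tested. Of 18 inflammatory cytokine and inflammasome genes 12 were above 0 (median 0.07) and 0 reached that threshold, with Il1b at 0.04 ± 0.20 and Il6 at 0.10 ± 0.13. Of 17 neutrophil markers 9 were above 0, with a median of 0.00. By material the neutrophil median was 0.10, 0.16 and -0.35, with 13, 12 and 1 of the 17 above 0.

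Of 12 acute phase genes 11 were above 0, with a median of 0.22, and 5 were higher at unadjusted p under 0.05, against 2.35% of all units. By material the median was 0.32, 0.53 and -0.10, with 5 of the 12 above 0 for NRCWE-045. Saa3, the serum amyloid A gene expressed in lung itself, ran from -3.74 to 0.44 at 54 µg (median -2.90) and from -4.31 to -2.04 at 18 µg (median -3.57), with the controls at a median of -4.02. The medians thus followed control, 18 and 54 µg in that order, with overlap between all of them. The difference was 0.77 ± 0.31, and by material it was 1.04, 0.91 and 0.20. Lcn2, the iron-binding lipocalin-2, had medians of 2.41 and 1.90 (difference 0.47 ± 0.17), close to each other in the materials at 0.40, 0.52 and 0.48. Itih4, a plasma inhibitor heavy chain, had medians of 6.11 and 5.65 (difference 0.48 ± 0.15). Saa1, the liver-type gene, differed by 0.03 ± 0.15, with values of 0.31, 0.19 and -0.56 by material. The 54 µg lungs of NRCWE-043 included replicate 1, whose score over the acute phase list (its mean log2 value over genes centred on the arrays) was 1.14, against 0.16 for the next. Without this array 3 of the 12 were higher at unadjusted p under 0.05. With the slide column as a block 1 of the 12 genes was higher at that threshold, and with the tissue scores 2 were.

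Interferon-responsive genes had differences above 0 in 23 of 24 tested members, with a median of 0.24. At unadjusted p under 0.05, 8 were higher, against 2.35% of all units, and 0 passed the adjusted test. Type I interferon acts through the factor ISGF3, which contains Stat2 and Irf9 and binds a response element with repeated GAAA. Oas1a, a sensor of double-stranded RNA, ran from -0.61 to 2.02 at 54 µg (median -0.10) and from -1.55 to 0.21 at 18 µg (median -0.62), with the controls at -0.76. All 15 arrays at 54 µg were above the 18 µg median and the difference was 0.73 ± 0.22, with 0.52 for another probe. Usp18, a feedback inhibitor of interferon signalling, differed by 0.36 ± 0.11 and Oas2, of the same family as Oas1a, by 0.62 ± 0.19. Irf9 differed by 0.19, Stat2 by 0.19, Oasl2 by 0.43, Rtp4 by 0.34 and Xaf1 by 0.21.

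The estimates of this list were unlike between materials. Its median was 0.58 for NRCWE-043, 0.19 for NRCWE-044 and -0.10 for NRCWE-045. Oas1a differed by 1.18, 1.00 and -0.24 and Oas2 by 1.11, 0.83 and -0.35. The limma test of dependence on material gave Oas1a an adjusted p of 1.00 (unadjusted 0.0184) and Oas2 one of 1.00 (unadjusted 0.00341), so a difference between materials was not shown. The interferon score of NRCWE-043 54 µg replicate 1 was 1.28, with 0.26 for the next of its group, and the scores overlapped between doses (-0.21 to 1.28 at 54 µg and -0.36 to 0.15 at 18 µg). Without this array and the 4 that stood apart, the list median was 0.14 and 5 of 24 were higher at unadjusted p under 0.05. Leaving out single arrays gave between 6 and 13, the highest without NRCWE-045 18 µg replicate 3.

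The sequences before the start of 2 of these genes are shown because they hold the repeat that ISGF3 recognises. The motif GAAANNGAAA (TTTCNNTTTC on the other strand, overlaps counted) was searched in the 250 bases before each start in the RefSeq promoter table (GRCm38.p6). Of the 8 genes above, 5 were in the table. Irf9, Oasl2 and Xaf1 had no match in this window. Capitals mark the GAAA or TTTC letters, each sequence is on the strand of its gene, and a match is a description of letters only. The Oas1a sequence lies at chr5:120907526-120907552 (minus strand) and ends at the base before the start, and that of Stat2 at chr10:128270266-128270295 (plus strand).
Oas1a: ttctcggGAAAtgGAAActGAAAatct
Stat2: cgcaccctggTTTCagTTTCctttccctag
Isg15: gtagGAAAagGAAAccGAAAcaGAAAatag
Isg15, a ubiquitin-like interferon product, is set beside them because it held 3 overlapping matches, at chr4:156200871-156200900 (minus strand), and differed by 0.41. Among the 19 tested members with a promoter entry, 10 held a match (52.6%), against 978 of all 32851 promoters (2.98%). The first count is of genes, for which any promoter could match, and the second is of promoters. The list is of interferon-responsive genes, so this share says nothing about dose. Members with and without a match were both found among those at unadjusted p under 0.05.

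**Figure D4:**
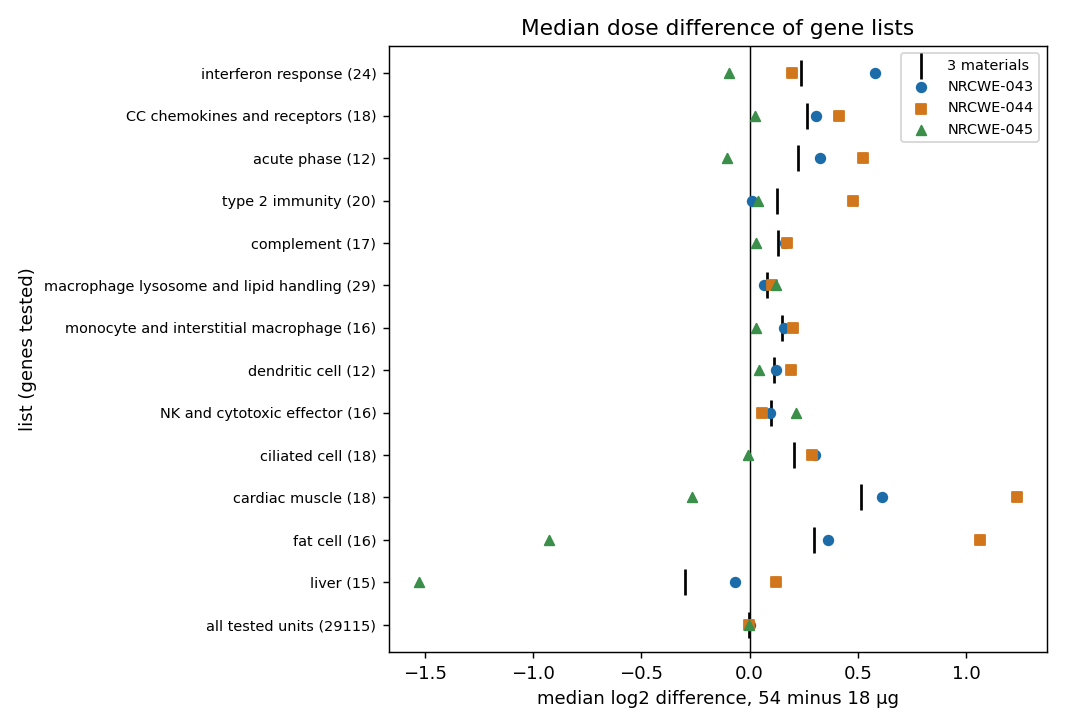
Median log2 difference, 54 minus 18 µg, of some of the gene lists described, with the number of genes tested in brackets. Black ticks are the fit over the 3 materials and symbols the differences within each material. The interferon list lies at 0.58 for NRCWE-043 and -0.10 for NRCWE-045, and all tested units lie at 0.00.

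Type 2 immune genes were above 0 in 15 of 20, with a median of 0.13, and 4 were higher at unadjusted p under 0.05, against 2.35% of all units. The count was 1 with the slide column as a block, 1 with the tissue scores, and 2 without the 4 arrays and NRCWE-043 54 µg replicate 1. The median was 0.01, 0.48 and 0.04 by material. All 4 are known from airway epithelium in type 2 inflammation. Slc26a4, the anion exchanger pendrin, ran from 2.26 to 6.09 at 54 µg (median 3.40) and from 0.70 to 5.35 at 18 µg (median 2.37), with the controls at 2.42. Its difference was 1.20 ± 0.39 and was 0.94, 2.05 and 0.31 by material. Clca1, a goblet cell secretory protein, differed by 2.64 ± 1.01, with values from -0.11 to 9.14 at 54 µg and from -0.39 to 3.41 at 18 µg. It was well above background on 11 of 15 and 9 of 14 arrays, the control median of 3.32 was above both dose medians (2.11 and 0.43), and by material the difference was 2.59, 4.86 and -0.50. Muc5ac, a gel-forming mucin, differed by 0.51 ± 0.20, with medians of 0.26 and 0.27, so its difference rests on a few high arrays. Fcgbp, a mucin-like IgG-binding protein, differed by 0.63. Among genes of alternatively activated macrophages Arg1 was at -0.08 ± 0.21 and Chil3 at 0.31 ± 0.35. Of 16 club and secretory cell markers 10 were above 0 and 0 reached the threshold, with medians of 0.24, 0.70 and -0.74 by material.

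All 18 ciliated cell markers were above 0 (median 0.21), and 3 reached unadjusted p under 0.05, against 2.35% of all units: Tekt4, a tektin of cilia (0.19 ± 0.08), the dynein chain Dnaic1 (0.18 ± 0.08) and Rsph1, of the radial spoke (0.27 ± 0.13). The count was 9 with slide as a block and 10 with the tissue scores, but 1 with the slide column, 1 without the 4 arrays and 0 without NRCWE-043 18 µg replicate 3. It was also 0 without the 4 arrays and NRCWE-043 54 µg replicate 1, where the median was 0.09. Over all units the higher counts in these fits were 1030, 779, 449, 589, 652 and 533, in the order given, against 683. By material the median was 0.30, 0.29 and -0.01. The score of the list ran from -0.46 to 0.59 at 54 µg and from -0.89 to 0.43 at 18 µg. The share of airway in each random section was not recorded in the labels, and the genes of a list such as this move together from array to array.

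Lymphoid and dendritic lists had medians of 0.04 to 0.12. Of 12 dendritic cell markers 9 were above 0 (median 0.12) and 4 were higher at unadjusted p under 0.05, against 2.35% of all units, among them Batf3, a factor of cross-presenting dendritic cells (0.27 ± 0.09), Cd86, a costimulatory ligand (0.21 ± 0.07), and Fscn1, an actin bundler of mature dendritic cells (0.23 ± 0.10). This count was 5 with the slide column as a block and 6 with the tissue scores, but 2 without NRCWE-043 54 µg replicate 1. Of 16 NK and cytotoxic genes 15 were above 0 (median 0.10). Eomes, an NK and T cell factor, was at 0.24 ± 0.09 and Gzmb, granzyme B, at 0.29 ± 0.14. Klrk1 was at 0.18 ± 0.06 but well above background on only 3 and 2 arrays. These 3 were the members higher at unadjusted p under 0.05, against 2.35% of all units. Their count was 4 with the tissue scores, but 1 with the slide column as a block and 2 without NRCWE-043 54 µg replicate 1. Of 21 B and plasma cell genes 17 were above 0 (median 0.08). This direction was lost without the 4 arrays, where 10 were above 0 (median -0.01), and for NRCWE-045, where 4 were (median -0.11). Jchain, which joins the subunits of secreted antibodies, ran from -2.27 to 0.43 at 54 µg (median -1.54) and from -2.93 to -0.24 at 18 µg (median -2.35), with the controls at -2.63. All 15 arrays at 54 µg were above the 18 µg median, and the difference was 0.81 ± 0.29, with 0.52, 1.58 and 0.10 by material. Of 20 T cell genes 14 were above 0 (median 0.04) and 0 reached the threshold. Without the 4 arrays and NRCWE-043 54 µg replicate 1 the median was -0.02.

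Matrix and structural genes had medians from -0.12 to 0.00. Of 28 matrix and fibrosis genes 14 were above 0, with a median of 0.00. Spp1, the matricellular protein osteopontin of macrophages, differed by 0.28 ± 0.13 and Mmp12, macrophage elastase, by 0.15 ± 0.08. Col1a1, the main fibrillar collagen, was at -0.01 ± 0.12 and the protease inhibitor Timp1 at 0.17 ± 0.11. Sparc, a collagen-binding glycoprotein, had medians of 1.89 and 2.07 (difference -0.18 ± 0.07), and Loxl1, a cross-linking oxidase of elastin, differed by -0.22. These 2 were the members lower at unadjusted p under 0.05, against 1.91% of all units. Only 1 of 13 alveolar type 1 cell markers was above 0 (median -0.07), with Emp2 at -0.16 ± 0.07 and 0.03 for another probe. The median of the type 1 cell list was -0.02, -0.18 and 0.04 by material, with 5, 0 and 9 of the 13 above 0, and 0.02 with the tissue scores, so its direction was not stable. Of 16 type 2 cell markers 7 were above 0 (median -0.02), and Sftpc differed by -0.14 ± 0.12. Of 11 mesothelial markers 1 was above 0 (median -0.12), and 0 were lower at unadjusted p under 0.05. By material the median was -0.23, -0.09 and 0.03. With slide as a block it was -0.23, and 3 were lower at that threshold, against 2.65% of all units in that fit. Oxidative stress genes had a median of 0.03 over 18 genes, with heme oxygenase Hmox1 at 0.13 ± 0.10 and -0.15 for another probe. The p53 targets had a median of 0.01 over 18 genes. Cell cycle genes had a median of -0.02 over 28 (0.03 without the 4 arrays), with Mki67 at 0.09 ± 0.14. Of these 3 lists, 0 members reached the threshold in either direction. The cell cycle median was -0.12, 0.13 and -0.16 by material, with 4, 25 and 3 of the 28 above 0.

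RNA of other organs was present to differing degrees. Cardiac muscle genes were above 0 in 17 of 18, with a median of 0.52, yet 0 reached unadjusted p under 0.05. Their score ran from -0.83 to 2.58 at 54 µg and from -0.82 to 1.64 at 18 µg, with medians of -0.59 and -0.58, and a few arrays carried the difference. The controls had a median score of 0.92. Fat cell genes were above 0 in 14 of 16 (median 0.30), with a score of up to 3.34 at 54 µg and 2.15 at 18 µg. Liver genes were above 0 in 1 of 15 (median -0.30), with 1 array at 18 µg at a score of 3.78. A log2 ratio has no true zero, so an absence of these markers cannot be stated for any array. Without the 4 arrays that stood apart the medians were 0.33, -0.03 and -0.05. Among the 30 leading genes the unadjusted limma p stayed under 0.05 for 15 of the 15 higher and 15 of the 15 lower genes with these tissue scores as covariates. The same held without the 4 arrays, with slide as a block and with the slide column as a block. The 30 genes were chosen for low p on these same arrays, so this was largely fixed by the choice and is no result.

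**Figure D5:**
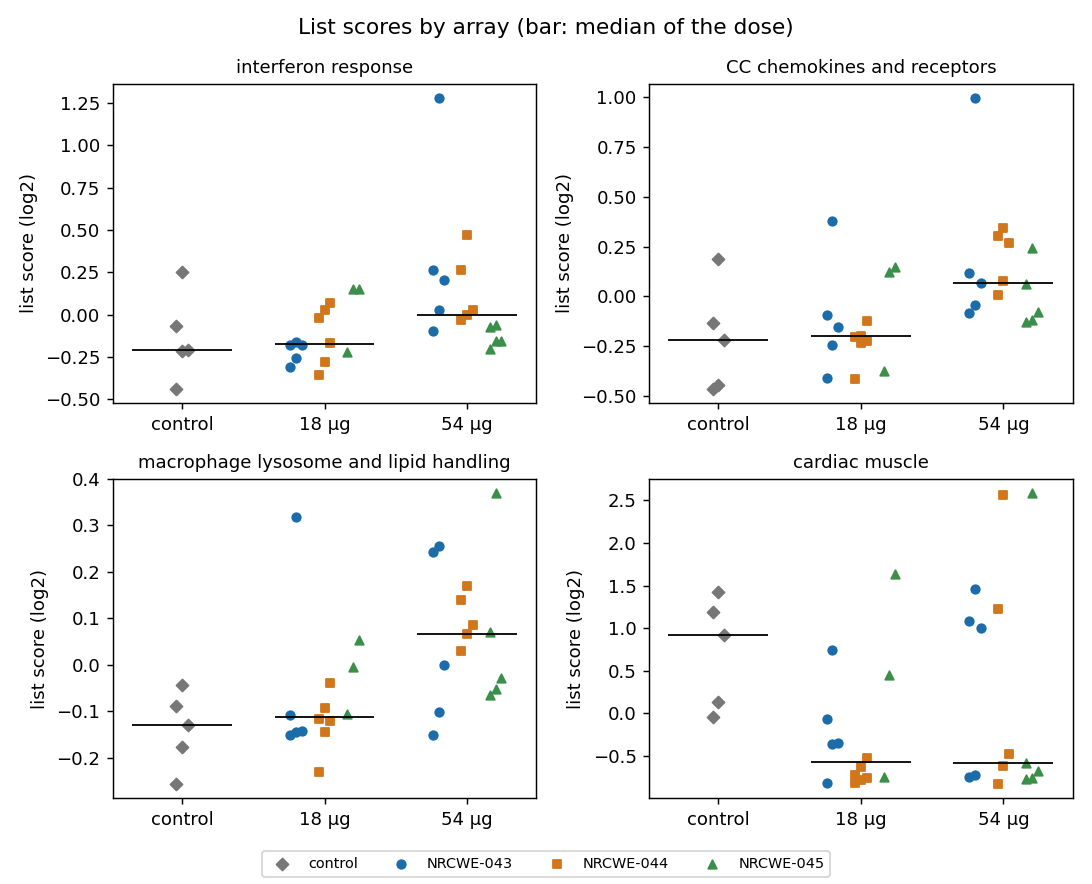
List score of each array (mean log2 ratio over the genes of a list after centring each gene over the arrays) for interferon response, CC chemokines, macrophage lysosome genes and cardiac muscle, by control, 18 µg and 54 µg. Bars are dose medians. In the interferon panel 1 NRCWE-043 array at 54 µg stands at 1.28, and cardiac scores reach 2.58 at 54 µg.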

How the data were processed

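Members, gene lists and tests were chosen with earlier results of these data known. The authors scanned the arrays and extracted spots with Agilent Feature Extraction 11.0.1.1, as stated per the file headers. As deposited, the files of the scanner hold, in both channels, median spot intensity, median intensity of the surrounding background, a processed intensity, and other columns with flags of 0 or 1. The deposited series table holds log2 ratios, for which no steps are stated (not given in the sources used here). It followed the ratios computed here with correlations of 0.994 to 0.998 over the arrays.

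Spot medians, since the files hold no means, were background-corrected with normexp (offset 50) and normalized by loess within each array, with control and irregular spots at weight 0 (limma 3.58.1, R 4.3.3). Symbols came from RefSeq accessions: 27235 of 55681 probes matched. The probe with the highest mean Cy5 represented a gene. Units well above background on at least 3 of the 29 exposed arrays were tested, 29115 in all; on an array 50.8 to 68.5% of probes were well above background, and 107 units lacked a value on some array. Their number limits the precision.

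The dose coefficient of a linear model with material as a block was tested with limma's eBayes, with p-values adjusted by Benjamini-Hochberg over all units at 0.05. The test was checked on simulated data. Named genes were, by rule, the 15 lowest p in each direction among genes of 1 sign in all 3 materials, up to 3 lowest-p members of each list described (out of 42 lists), 25 genes of interest (24 tested), and 5 interaction genes. Other members named by value are those counted at unadjusted p under 0.05 or were picked after their values were seen. Alternatives covered slide, slide column, signal, normalization, filter, probe rule, weights, tissue scores, and leaving out materials and arrays; those on column and on arrays that stood apart were chosen after seeing the data. Some genes of the lists count in the totals but are not reported here by name.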

Additional observations from a re-analysis of the deposited data

Results flagged for a closer look

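Scores of 13 of the described lists and values of Ctsk, Trem2, Klrg1, Ms4a7, Ly6i and Oas1a were examined, and the other lists were not. Values of 1 material at 1 dose, and of the controls, were compared within 114 groups of 5 or 6 arrays. In 14 of them 1 array lay far from the rest by Dixon's gap test, where chance gives about 1 in 20. No weighing of causes was made, and each is given as a value.

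NRCWE-043 54 µg replicate 1 was highest of its group in the CC chemokine score (1.00, next 0.12), the NK score (0.34, next -0.03), the acute phase score (1.14, next 0.16) and the interferon score (1.28, next 0.26). NRCWE-043 18 µg replicate 3 was highest in Ctsk (3.44, next 2.43), Ly6i (1.37, next 0.57), Trem2 (-0.43, next -1.95) and the macrophage lysosome score (0.32, next -0.11). NRCWE-045 54 µg replicate 4 was highest in Ms4a7 (0.87, next 0.15), the cardiac score (2.58, next -0.59), the fat score (2.49, next -0.31) and the type 2 immunity score (1.14, next -0.18). The liver score was highest in NRCWE-044 54 µg replicate 1 (0.73, next -0.23) and in NRCWE-045 54 µg replicate 1 (1.15, next -0.05).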

How the results depend on the processing

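The count of units past the adjusted test was 0 under all 51 alternatives that allow a test, for the dose difference and, where it was fitted, for its dependence on material; values within single slides allow no test. The smallest adjusted p for a named gene was 0.169 (Klrg1, without NRCWE-043) and the largest 1. Unadjusted counts moved more. Higher units at p under 0.05 numbered 1030 with slide as a fixed block, 1031 with slide as a random block, 257 without NRCWE-044 and 449 with the slide column as a block, against 683. Lower units numbered 242 without NRCWE-044 and 369 with the column, against 555. Units for dependence on material numbered 1195 and 1227 with slide fixed and random, 1140 with slide and column, 1071 without the 4 arrays and 1053 without these and NRCWE-043 54 µg replicate 1, against 657. Leaving out single arrays gave 482 to 921 higher, 451 to 769 lower and 518 to 1117 for dependence on material, the highest being without NRCWE-045 54 µg replicate 4. The causes were not tested. Of the unadjusted calls 55.2% were higher, but 43.6% (537 and 695) with the scanner software's processed signals and 49.0% (592 and 616) with the deposited table. The share was 49.3% (502 and 516) with equal weight of the materials, 44.2% without NRCWE-043 and 47.3% without the 4 arrays. It was 63.2% without NRCWE-045 and 62.7% with the lung channel alone. The 30 leading genes changed sign in 1 of 1522 alternative values, and 10 of the 24 tested genes of interest did so in 58 of 1222. For the leading genes this too was largely fixed by their choice. With 14 and 15 arrays no difference, of dim or bright probes, was told from 0 after adjustment. Over all units the median size of the difference was 0.045 and the median SE 0.067. Wide differences did not pass either, such as Slc26a4 (1.20 ± 0.39, an SE above that median). Slc26a4 was well above background on all 15 and 14 arrays. No paired analysis was possible because replicate numbers only follow the order of deposit.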
